A study of Mus musculus with 15 samples.

Results

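Histones are the proteins around which DNA is wound, and most of a dividing cell's histone mRNA comes from the replication-dependent histone genes. The set described here held 30 mouse genes of 19296 tested. Each was taken because a probe set of the array was annotated with exactly 1 gene symbol beginning with a histone cluster prefix (H1f, H2ac, H2bc, H3c, H4c or the older Hist1h to Hist4h), and each gene had 1 such probe set. The rule used no expression value except to prefer the brightest probe set. By class there were 8 genes for the linker histone H1, 4 for H2A, 9 for H2B, 3 for H3 and 6 for H4. In RefSeq, 23 lay in the Hist1 cluster on chromosome 13 and 4 in the Hist2 cluster on chromosome 3. The name of the set holds for 24 of the 30. H1f6, H2ac1 and H2bc1 are cluster genes known for expression in testis. H1f10, H1f8 and H1f7 encode linker variants outside the clusters that share the prefix but are not coupled to replication, and H1f7 is also expressed in testis. Counts are therefore given for all 30 and for the other 24.

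The study, whose title concerns replication stress in the ageing of haematopoietic stem cells, profiled cells sorted from wild-type C57Bl/6 mice on 15 Affymetrix arrays. Haematopoietic stem cells (HSC) were lineage-negative, c-Kit+ and Sca1+, lacked Flk2 and CD48 and carried CD150, with 5 arrays from young and 3 from old mice. Granulocyte/macrophage progenitors (GMP), their more differentiated and more proliferative relatives, were lineage-negative, c-Kit+ and Sca1-, and carried CD34 and the Fc gamma receptor, with 4 arrays from young and 3 from old mice. Young meant 6 to 12 weeks and old 22 to 30 months, and every sample was labelled male. Since no label states if 1 mouse or several gave the RNA of an array, the p-values measure the spread between arrays, which may be technical.

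Replication-dependent histone genes are switched on as DNA replication starts. Cyclin E with CDK2 phosphorylates the coactivator NPAT at the clusters, and the transcripts end in a conserved stem-loop, bound by SLBP, in place of a poly(A) tail. The mRNAs are degraded when replication stops. For some members, including the human counterparts of H2bc21, H2bc4 and H1f2, polyadenylated transcripts have been described in human cells that have left the cycle. The labels name whole-transcript amplification kits, and how well these capture RNA without a poly(A) tail was not tested. HSC divide rarely, whereas GMP divide often.

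The promoters of the set carry elements found at histone genes of each class. In RefSeq (GRCm38.p6), 26 of the 30 members matched a promoter entry. The 250 bases before each start were searched on both strands for the octamer bound by OCT1 (ATTTGCAT), the CCAAT box (CCAAT) and the TATA box (TATAAA). None of these motifs contains another. The octamer stood in 8 of 26 members (30.8%) against 1.60% of all 32851 promoters, namely in 3 of 4 H2A genes, 5 of 7 H2B genes and 0 of the 15 H1, H3 and H4 genes. CCAAT stood in 20 of 26 (76.9%, against 33.8% of all) and TATAAA in 14 of 26 (53.8%, against 12.4%). H2ac8 and H2bc8 start 180 bases apart on opposite strands, and H2ac1 and H2bc1 281 bases apart, so each of these pairs shares an octamer, and the 8 genes hold 6 distinct octamers.

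The 120 bases before the start are shown for 3 H2B genes with the octamer and for 3 H1 genes, of which H1f5 and H1f1 were lower in HSC and H1f2 higher in young HSC. They run 5′ to 3′ on the strand of the gene, with the searched letters in capitals. H2bc8 covers chr13:23571280-23571399 (plus strand), H2bc14 chr13:21721924-21722043 (plus), H2bc18 chr3:96269580-96269699 (plus), H1f5 chr13:21780626-21780745 (minus), H1f1 chr13:23763548-23763667 (plus) and H1f2 chr13:23738687-23738806 (plus).
H2bc8: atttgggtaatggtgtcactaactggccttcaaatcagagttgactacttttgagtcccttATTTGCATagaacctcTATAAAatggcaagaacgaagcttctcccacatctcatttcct
H2bc14: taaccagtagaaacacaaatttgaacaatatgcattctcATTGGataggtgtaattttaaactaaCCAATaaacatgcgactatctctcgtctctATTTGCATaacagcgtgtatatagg
H2bc18: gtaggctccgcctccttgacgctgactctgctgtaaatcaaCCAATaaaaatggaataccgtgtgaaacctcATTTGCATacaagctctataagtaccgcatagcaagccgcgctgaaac
H1f5: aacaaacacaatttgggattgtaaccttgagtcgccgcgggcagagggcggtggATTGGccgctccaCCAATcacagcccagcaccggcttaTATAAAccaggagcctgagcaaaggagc
H1f1: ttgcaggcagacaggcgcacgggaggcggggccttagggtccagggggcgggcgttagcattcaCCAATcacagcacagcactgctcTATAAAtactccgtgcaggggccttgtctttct
H1f2: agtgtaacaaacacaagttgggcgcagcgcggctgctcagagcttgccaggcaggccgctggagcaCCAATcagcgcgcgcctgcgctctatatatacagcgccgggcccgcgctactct
The H2B sequences each hold the octamer ATTTGCAT in the sense of the gene, and the H1 sequences each hold CCAAT about as far from the start (positions -56 to -52 in H1f1, -54 to -50 in H1f2 and -53 to -49 in H1f5, counted back from the start). H1f1 and H1f5 also hold TATAAA, whereas H1f2 has no match to these letters. A match describes these letters only.

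As groups, the sorted cells carried the markers of their labels. In young mice 9 of 9 HSC genes were higher in HSC and 10 of 10 GMP genes lower, and in old mice 9 of 9 and 8 of 10. Of 7 gate genes 2 were lower in old than in young HSC with no overlap, Cd34 (-1.03, adjusted p = 9.46e-04) and Flt3, which encodes Flk2 (-0.69, adjusted p = 0.00341, both by limma). Their part in the age differences of histone genes was not tested. The mean levels of most other cells' marker lists overlapped between young and old HSC. The mean log2 level of 7 erythroid genes was 7.22 to 7.56 in young and 7.46 to 7.54 in old HSC, that of 8 B cell genes 6.48 to 6.69 and 6.48 to 6.66, that of 10 neutrophil genes 6.06 to 6.45 and 6.09 to 6.32, and that of 10 macrophage genes 6.19 to 6.91 and 6.43 to 6.65. For 7 megakaryocyte genes it was 7.92 to 8.51 and 8.34 to 8.35, and for 10 endothelial genes 7.37 to 7.63 and 7.43 to 7.64. The list of 9 T and NK cell genes did not overlap, at 6.50 to 6.64 in young and 6.69 to 6.82 in old HSC, and that of 10 mast cell genes stood at 6.06 to 6.39 and 6.31 to 6.55. The overlap of the macrophage and mast cell lists rested on the young HSC array numbered 4. Without it young HSC ran from 6.19 to 6.35 and from 6.06 to 6.23, below old HSC in both lists. RMA values have no true zero, and no marker can be read as absent. The young arrays numbered 4 stood apart. Their interquartile ranges of 2.21 (HSC) and 2.13 (GMP) were the lowest of the young arrays, and their mean of Y-linked genes, at 4.94 and 5.20, lay below the 7.12 to 8.80 of all others, although all were labelled male. Xist, which female cells express, stood at 8.92 to 11.51 on 7 of the 9 young arrays, both of these included, and at 5.46 to 5.84 on the 6 old arrays. Age thus goes with a sign of female RNA, and these cannot be fully told apart. The young HSC array numbered 4 also differed in gate genes. Cd48 read 7.56 on it (5.95 to 6.47 on the other young HSC arrays), Fcgr3 7.01 (6.02 to 6.36) and Slamf1, which encodes CD150, 8.12 (8.42 to 8.74). Mki67, a proliferation gene, read 10.28 (8.63 to 9.09), and the mean of the HSC genes was 9.07 (9.32 to 9.54). The cause was not tested. Results that rest on the young arrays numbered 4 are given with and without them.

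In young mice histone genes were lower in HSC than in GMP more often than higher. Of the 30 members 15 were lower (50%, where 10.9% of all genes tested were lower) and 2 higher (13.6% of all genes), by limma with an adjusted p under 0.05. The median difference, HSC minus GMP, was -0.55 on the log2 scale and ranged from -1.57 to 0.82, against -0.05 over all genes. Of the 24 cluster genes outside the testis group 13 were lower and 2 higher. In bulk RNA from sorted cells, fewer cells in S phase and less histone mRNA per cell cannot be told apart. Without both young arrays numbered 4 the counts were 18 lower (12% of all genes) and 3 higher (14.4%).

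By class, 4 of 6 H4 genes, 3 of 4 H2A genes, 5 of 9 H2B genes, 1 of 3 H3 genes and 2 of 8 H1 genes were lower, and the 2 higher genes were H2bc21 (H2B) and H1f2 (H1). The H3 genes not called, H3c7 and H3c15, were dim, below the lower quartile of all probe sets on 14 and 9 of 15 arrays. By cluster, 14 of 23 Hist1 genes were lower and 1 higher, and 1 of 4 Hist2 genes was lower and 1 higher. None of the 3 linker variants outside the clusters passed the test, and their differences ran from -0.20 to 0.00. The arrays of HSC and GMP did not overlap in 13 members with HSC lower (9.51% of all genes) and in 1 with HSC higher (11.7%). Markers of other cells differed too. Of 10 neutrophil genes 6 were lower in young HSC, of 10 macrophage genes 4 and of 10 mast cell genes 7, whereas 7 of 7 megakaryocyte genes were higher. Their part in the histone differences was not tested.

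**Figure D1:**
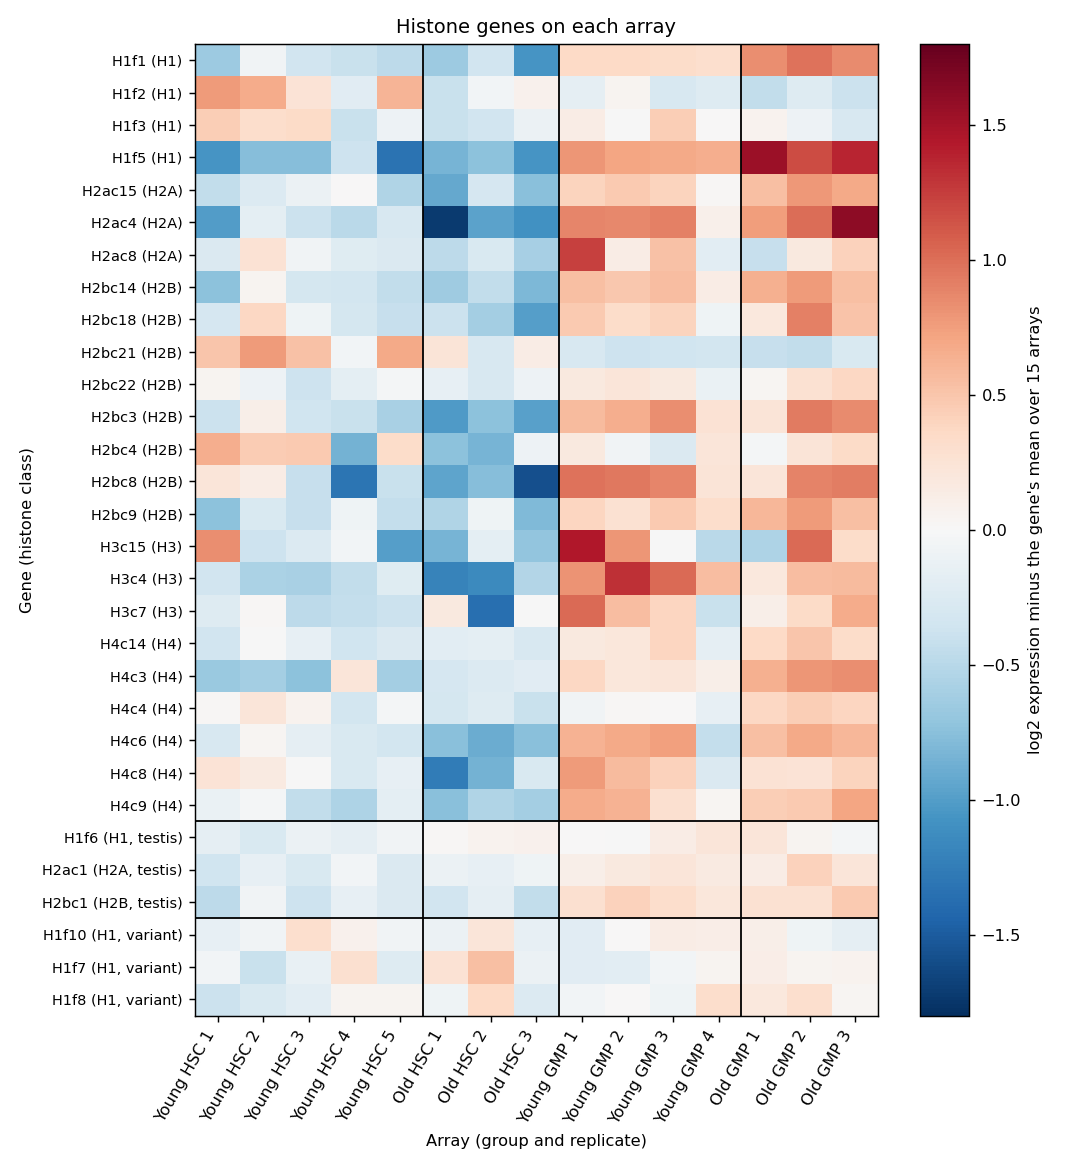
Each row is 1 of the 30 histone genes and each column 1 of the 15 arrays. The colour is the log2 expression minus the mean of that gene over the arrays, so that colours compare arrays within a row and not genes with each other. Most rows are blue in the 8 HSC arrays and red in the 7 GMP arrays. In H2bc21 and H1f2 most young HSC arrays are red and most GMP arrays blue, while the old HSC arrays are mixed.

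H1f5, the linker histone H1.5 (older name Hist1h1b), had the largest difference between young cells. Its log2 values were 8.41, 8.71, 8.71, 9.10 and 8.14 on the 5 young HSC arrays and 10.27, 10.19, 10.16 and 10.13 on the 4 young GMP arrays. Every HSC array lay below every GMP array by about 1 log2 unit or more. The difference was -1.57 ± 0.15 (SE), a 2.98-fold lower level (limma adjusted p = 1.08e-07). H1f1 (Hist1h1a), the linker histone H1.1, read 8.17, 8.77, 8.49, 8.44 and 8.37 in young HSC and 9.20, 9.19, 9.16 and 9.13 in young GMP. Its groups did not overlap, and the difference was -0.72 ± 0.13 (adjusted p = 3.14e-04 by limma).

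The core histones gave differences of like size. H3c4 (Hist1h3d), an H3 gene, read 7.50, 7.28, 7.26, 7.40 and 7.62 in young HSC and 8.65, 9.16, 8.86 and 8.40 in young GMP, with no overlap. It was lower by 2.56-fold (log2 difference -1.36 ± 0.16, limma adjusted p = 1.71e-06). H2ac4 (Hist1h2ab), an H2A gene whose promoter holds the octamer, read 7.88, 8.72, 8.51, 8.41 and 8.60 in young HSC and 9.77, 9.76, 9.81 and 8.99 in young GMP. The GMP array numbered 4 was the lowest of its group but still above all young HSC arrays. The difference was -1.16 ± 0.21 (2.23-fold, limma adjusted p = 3.17e-04).

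Among the H2B genes with the octamer shown above, H2bc8 (Hist1h2bg) read 10.63, 10.55, 9.995, 9.10 and 10.01 in young HSC and 11.39, 11.37, 11.30 and 10.65 in young GMP. The highest HSC array and the lowest GMP array nearly met. The difference was -1.12 ± 0.26 (2.17-fold, limma adjusted p = 0.00273). H2bc18 (Hist2h2bb), also shown above, overlapped between the groups and did not pass (-0.43, limma adjusted p = 0.0894). H2bc3 (Hist1h2bb) was lower by 1.87-fold (-0.91 ± 0.16, adjusted p = 1.94e-04) and H2bc14 (Hist1h2bm) by 1.72-fold (-0.78 ± 0.14, adjusted p = 2.15e-04, both by limma), each with no overlap. The octamer of H2bc3 is not among those shown. H2bc9 (-0.75), H4c3 (-0.71), H4c9 (-0.67), H4c6 (-0.61), H2ac15 (-0.59), the testis genes H2bc1 (-0.57) and H2ac1 (-0.39), and H4c14 (-0.38) were the other genes lower in HSC.

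H2bc21 (Hist2h2be), an H2B gene of the chromosome 3 cluster, was higher in HSC. Its values were 10.16, 10.41, 10.18, 9.60 and 10.33 in young HSC and 9.37, 9.27, 9.29 and 9.32 in young GMP, with no overlap. The difference was 0.82 ± 0.14 (1.77-fold, limma adjusted p = 1.78e-04). H1f2 (Hist1h1c), a linker histone, read 11.51, 11.41, 11.00, 10.54 and 11.35 in young HSC and 10.59, 10.80, 10.45 and 10.52 in young GMP. Only the HSC array numbered 4 fell within the range of GMP. It was higher by 1.49-fold (0.57 ± 0.16, limma adjusted p = 0.0132). H2bc4 (Hist1h2bc) read 9.72, 9.53, 9.53, 8.21 and 9.40 in young HSC and 9.24, 9.01, 8.80 and 9.28 in young GMP, and did not pass the test (0.19, limma adjusted p = 0.602). With the young HSC array numbered 4 left out it was higher in HSC, by 0.46 (limma adjusted p = 0.0276).

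**Figure D2:**
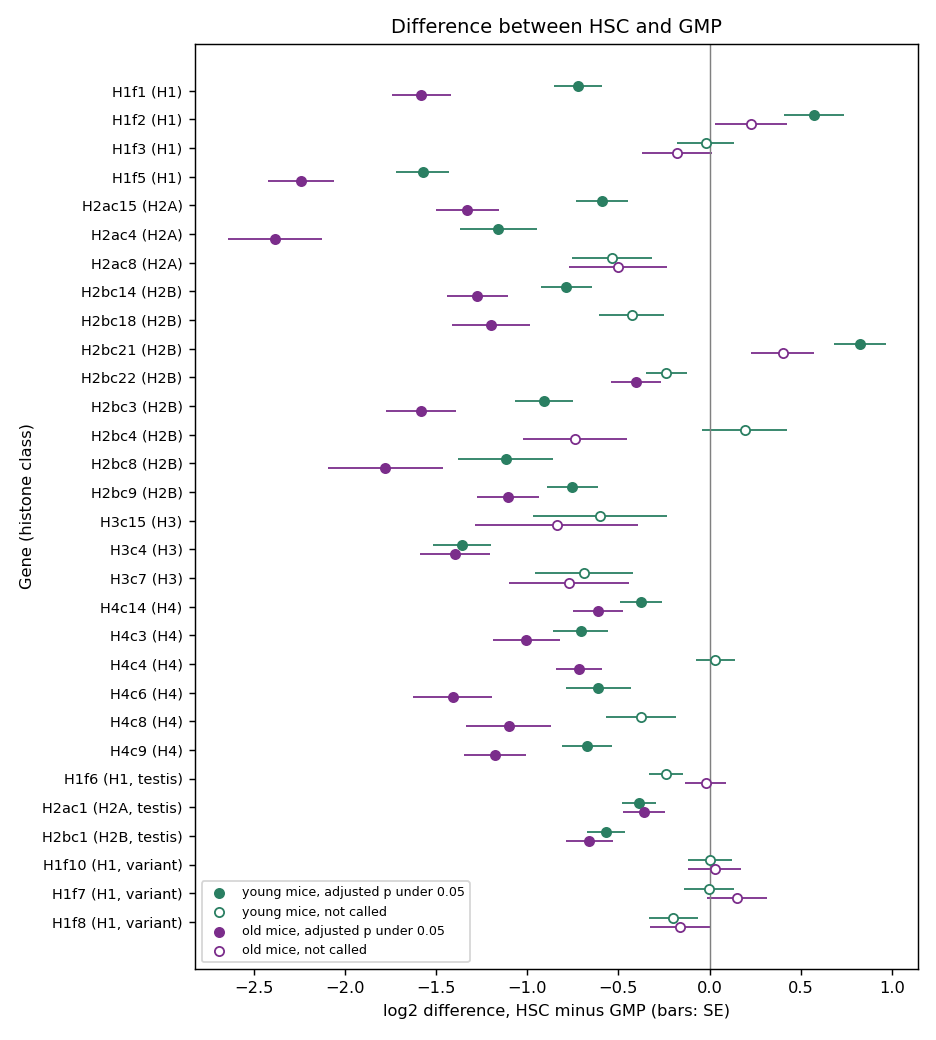
Points give the log2 difference, HSC minus GMP, of each histone gene in young mice (green) and old mice (purple), with bars of 1 SE, and filled points passed an adjusted p of 0.05. Filled points lie left of 0 at both ages for 15 genes, and H2bc21 and H1f2 are the filled points on the right, in young mice.

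In old mice the same comparison gave 19 of 30 members lower in HSC (63.3%, where 13% of all genes were lower) and 0 higher (9.25% of all genes), by limma with an adjusted p under 0.05. At an unadjusted p under 0.05, 1 member was higher, H2bc21 (13.4% of all genes). The median difference was -0.80 and the range -2.38 to 0.40, against 0.02 over all genes. Of the 24 cluster genes outside the testis group 17 were lower, with a median of -1.10. All 6 H4 genes, 7 of 9 H2B genes, 3 of 4 H2A genes, 1 of 3 H3 genes and 2 of 8 H1 genes were lower. Groups did not overlap in 20 members, all with HSC lower (18.4% of all genes, and 16.3% with HSC higher).

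H2ac4 had the largest difference in old mice. Its values were 7.17, 7.93 and 7.81 on the 3 old HSC arrays and 9.65, 9.90 and 10.51 on the 3 old GMP arrays, so that the groups stood well apart. The difference was -2.38 ± 0.26 (5.21-fold, limma adjusted p = 1.08e-06). H1f5 read 8.64, 8.73 and 8.42 in old HSC and 11.02, 10.65 and 10.84 in old GMP, and was lower in HSC by 4.72-fold (-2.24 ± 0.18, limma adjusted p = 2.28e-08). H1f1 read 8.18, 8.48 and 7.77 in old HSC against 9.67, 9.81 and 9.69 in old GMP, again without overlap (-1.58 ± 0.16, limma adjusted p = 4.96e-07).

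H2bc8 read 9.46, 9.65 and 8.84 in old HSC and 10.64, 11.31 and 11.33 in old GMP (-1.78 ± 0.31, limma adjusted p = 2.91e-04). H2bc3 read 8.07, 8.35 and 8.11 in old HSC and 9.31, 10.02 and 9.94 in old GMP (-1.58 ± 0.19, limma adjusted p = 4.42e-06). In both H2B genes every old HSC array lay below every old GMP array. H4c6 (Hist1h4f), an H4 gene, read 8.61, 8.47 and 8.62 in old HSC and 9.91, 10.04 and 9.97 in old GMP, which is 2.66-fold lower (-1.41 ± 0.22, limma adjusted p = 6.58e-05). The other genes lower in old HSC were H3c4 (-1.39), H2ac15 (-1.33), H2bc14 (-1.27), H2bc18 (-1.20), H4c9 (-1.18), H2bc9 (-1.11), H4c8 (-1.10), H4c3 (-1.005), H4c4 (-0.72), H2bc1 (-0.66), H4c14 (-0.61), H2bc22 (-0.41) and H2ac1 (-0.36).

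The comparisons at the 2 ages share no array. All 15 genes that were lower in young HSC were also lower in old HSC, where they made up 15 of the 19. In 12 of these 15 the groups did not overlap at either age. Of all genes 10.9% were lower in young and 13% in old HSC. The share lower or without overlap at both ages was not counted over all genes. These 2 counts therefore describe the members only. H2bc21 read 9.88, 9.36 and 9.78 in old HSC and 9.24, 9.21 and 9.38 in old GMP, and its difference of 0.40 ± 0.17 did not pass (limma adjusted p = 0.115). It passed without the young HSC array numbered 4 (adjusted p = 0.0296) and without the second old HSC array (adjusted p = 0.0358, both by limma). H1f2 read 10.34, 10.70 and 10.82 in old HSC and 10.31, 10.51 and 10.35 in old GMP, with overlap and a difference of 0.23 (limma adjusted p = 0.519). H2bc4 stood at 8.33, 8.23 and 8.97 in old HSC, below the 9.03, 9.30 and 9.41 of old GMP, without passing (-0.74, limma adjusted p = 0.0732).

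Histone genes are near copies of each other, and 22 further histone probe sets of the array carried several gene symbols and were not members. Tested over all 23309 probe sets, 19 of these 22 were lower in young HSC than in young GMP (10.7% of all probe sets) and 20 in old mice (12.4%), with 0 higher at either age (12.7% and 8.68%), by limma with an adjusted p under 0.05. Their median differences were -0.62 and -1.02, and all 22 differences were negative at both ages. All 9 whose histone symbols were of H3 alone were lower at both ages (medians -0.68 and -1.18). With age in HSC 2 of the 22 were lower (8.35%) and 0 higher (2.03%), and in the interaction 0 were lower (0.0686%) or higher (0.0215%). How far a member's signal includes that of a near-identical neighbour was not tested.

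Between old and young HSC, the share of histone genes called lower was near that of all genes. Of the 30 members 3 were lower in old than in young HSC (10%, near the 9.22% of all genes that were lower) and 0 higher (2.25%), by limma with an adjusted p under 0.05. At an unadjusted p under 0.05, 15 were lower (19.3% of all genes) and 1 higher (12.1%). The median difference, old minus young, was -0.32 and the range -0.79 to 0.34, against 0.03 over all genes, and 24 of 30 differences were negative. Among the 24 cluster genes outside the testis group the median was -0.40, and 22 differences were negative.

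The 3 genes called were H4c8, H2ac4 and H2bc3. H4c8 (Hist1h4h), an H4 gene, read 7.82, 7.74, 7.57, 7.30 and 7.43 in young HSC and 6.31, 6.73 and 7.30 in old HSC. The third old array reached the lowest young one. The gene was lower by 1.73-fold (-0.79 ± 0.21, limma adjusted p = 0.0231).

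H2ac4 read 7.88, 8.72, 8.51, 8.41 and 8.60 in young HSC and 7.17, 7.93 and 7.81 in old HSC, where 1 old array lay above the lowest young one (-0.79 ± 0.23, 1.72-fold, limma adjusted p = 0.0348). H2bc3 read 8.71, 9.19, 8.72, 8.69 and 8.51 in young HSC and 8.07, 8.35 and 8.11 in old HSC. It was the called gene without overlap (-0.59 ± 0.17, limma adjusted p = 0.0343). Including it, groups did not overlap in 3 members with old HSC lower (7.69% of all genes) and in 1 with old HSC higher (5.1%).

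Several members stood just past the threshold. H4c6 read 9.08, 9.41, 9.21, 9.09 and 9.04 in young HSC, above the 8.61, 8.47 and 8.62 of old HSC, and had a difference of -0.60 (limma adjusted p = 0.0512). H3c4 (-0.53, adjusted p = 0.0522), H1f2 (-0.54, adjusted p = 0.0536), H2bc4 (-0.77, adjusted p = 0.0557) and H2bc21 (-0.46, adjusted p = 0.0580) followed, all by limma. H1f5 (-0.02) and H4c14 (0.00) had differences near 0, and H4c3 (0.23) and the linker variant H1f7 (0.34) had positive ones that did not pass.

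These counts moved with single arrays. Without the young HSC array numbered 4, 13 members were lower (17.9% of all genes) and 2 higher (9.62%). The lower ones then included H2bc4 (-1.04), H2bc8 (-0.98), H1f2 (-0.70) and H2bc21 (-0.60), and the higher ones were H1f7 (0.44) and H4c3 (0.41). Without the second or the third young HSC array 0 were lower (4.02% and 4.09% of all genes). The same count came without the first or the second old one (1.92% and 1.44%), and without the first young one it was 1 (6.52%). The count was 5 without the third old HSC array (12.2% of all genes) or without the young GMP array numbered 4 (11%). The share of all genes thus moved in the same direction as these counts. The spread of an array's values also went with age. The interquartile range was 2.21 to 2.69 in young and 1.96 to 2.33 in old HSC. With it as a covariate 0 members were called (0.264% of all genes were lower and 0.28% higher). With Xist as a covariate 7 were lower (10.5% of all genes).

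In GMP no histone gene passed the test for age. Of the 30 members 0 were higher and 0 lower, as for all genes tested (0% in each direction), by limma with an adjusted p under 0.05. At an unadjusted p under 0.05, 5 members were higher (1.56% of all genes) and 1 lower (2.95%). Groups did not overlap in 7 members, all higher in old GMP (3.1% of all genes, and 3.72% lower). The median difference was 0.12 and the range -0.49 to 0.65.

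The smallest p-values belonged to the linker histones H1f5 and H1f1 and to the H4 gene H4c4 (Hist1h4d). H1f5 read 10.27, 10.19, 10.16 and 10.13 in young GMP and 11.02, 10.65 and 10.84 in old GMP, a difference of 0.65 ± 0.17 (limma adjusted p = 0.632). H1f1 differed by 0.55 ± 0.15 (limma adjusted p = 0.666), and all 3 old arrays, at 9.67, 9.81 and 9.69, lay above the young ones. H4c4 read 12.25, 12.33, 12.32 and 12.16 in young GMP and 12.68, 12.75 and 12.69 in old GMP (0.44 ± 0.12, limma adjusted p = 0.666). H4c3 differed by 0.53 and H3c4 by -0.49, neither passing. Without both young arrays numbered 4, H1f5 (0.63, adjusted p = 0.0474) and H4c3 (0.49, adjusted p = 0.0275) passed by limma.

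**Figure D3:**
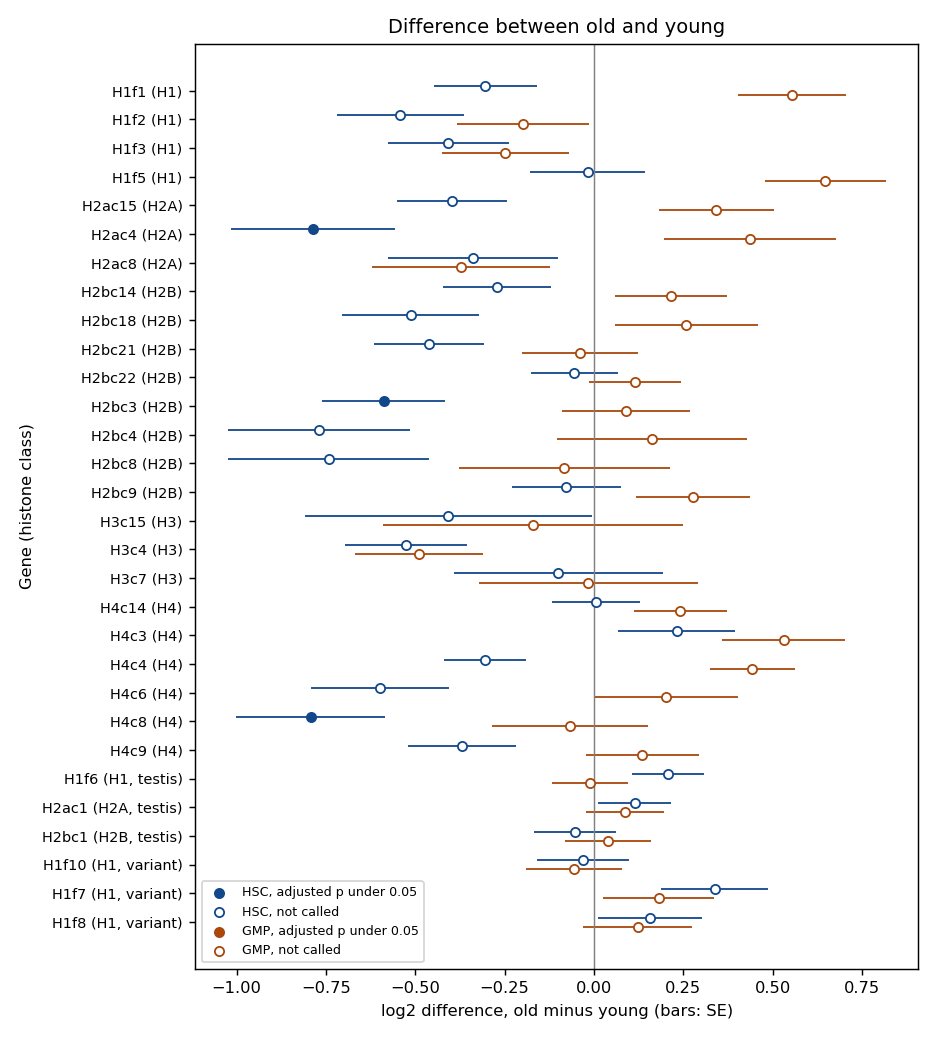
Points give the log2 difference, old minus young, of each histone gene in HSC (blue) and GMP (orange), with bars of 1 SE, and filled points passed an adjusted p of 0.05. H2ac4, H2bc3 and H4c8 in HSC are the filled points, and 24 of the 30 HSC differences are negative.

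Whether the age difference in HSC differed from that in GMP was tested by the interaction term. None of the 30 members passed in either direction (0.0674% of all genes were lower and 0.0259% higher), by limma with an adjusted p under 0.05, and at an unadjusted p under 0.05, 12 were lower (7.45%) and 0 higher (3.77%). The difference between the age differences was negative in 23 of the 24 cluster genes outside the testis group, with a median of -0.50. H4c4 had the smallest p. It read 12.33, 12.52, 12.37, 11.98 and 12.28 in young HSC and 11.99, 12.08 and 11.90 in old HSC, and its interaction was -0.75 ± 0.17 (limma adjusted p = 0.130). H1f1 (-0.86 ± 0.21, adjusted p = 0.146) and H2ac4 (-1.22 ± 0.33, adjusted p = 0.222) followed, both by limma. Without the young HSC array numbered 4, H4c4 (-0.83, adjusted p = 0.0116) and H2bc4 (-1.20, adjusted p = 0.0204) passed by limma.

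**Figure D4:**
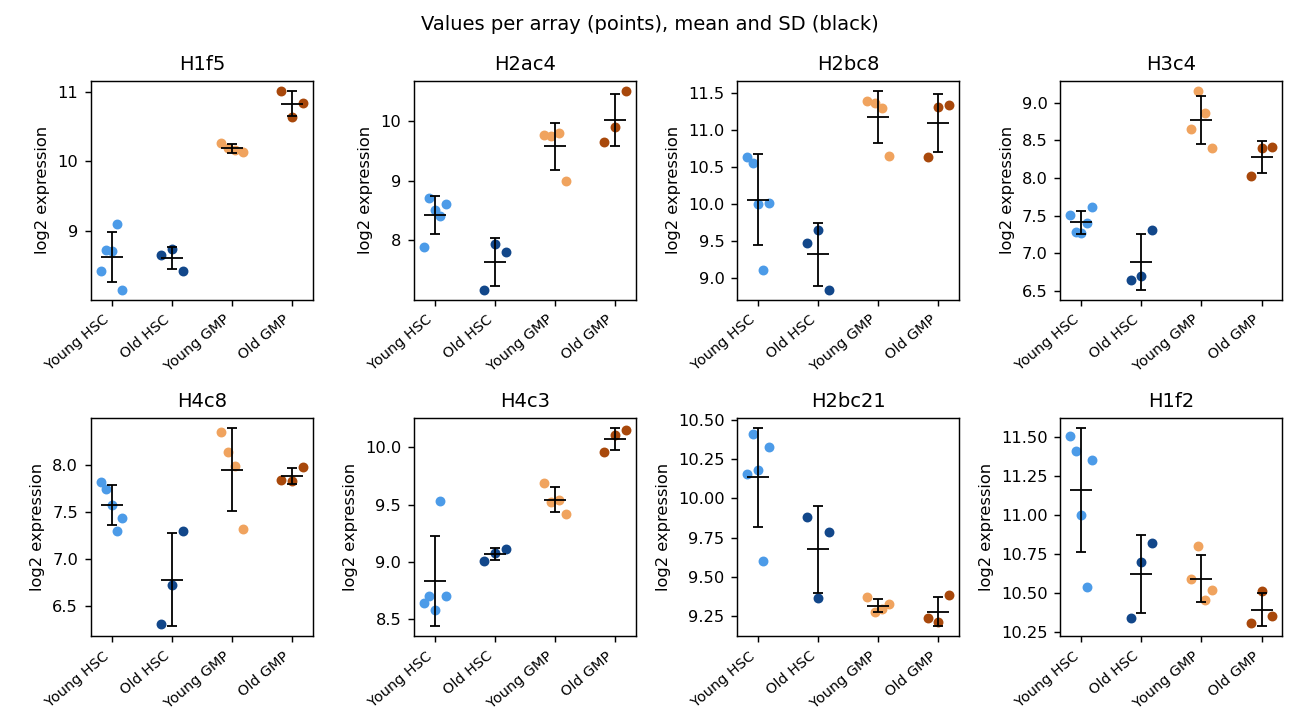
Each panel shows the log2 expression of 1 histone gene on every array (points) with the group mean and SD (black). H1f5 and H2ac4 separate HSC from GMP at both ages, H2bc21 and H1f2 are highest in young HSC, and a young array numbered 4 lies apart from its group in H4c3, H2bc8 and H4c8.

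Averaged over the 24 cluster genes outside the testis group, the log2 level was 8.18 ± 0.05 in old HSC (SD over 3 arrays), 8.56 ± 0.14 in young HSC (5 arrays), 9.08 ± 0.23 in young GMP (4 arrays) and 9.21 ± 0.15 in old GMP (3 arrays). The order was old HSC, young HSC, young GMP and old GMP. The HSC arrays ran from 8.13 to 8.23 in old and from 8.42 to 8.77 in young mice, and young GMP from 8.76 to 9.27, so that the highest young HSC array just reached the lowest young GMP array, the one numbered 4. Old GMP, at 9.03 to 9.30, overlapped young GMP.

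Some members were too dim to follow. H2ac8 and H3c7 lay below the lower quartile of all probe sets on 14 of 15 arrays, H1f3 on 10 and H3c15 on 9. None of these 4 passed a test in any comparison. H2bc22 was below it on 2 arrays, and H1f6 and H4c8 on 1 each.

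**Figure D5:**
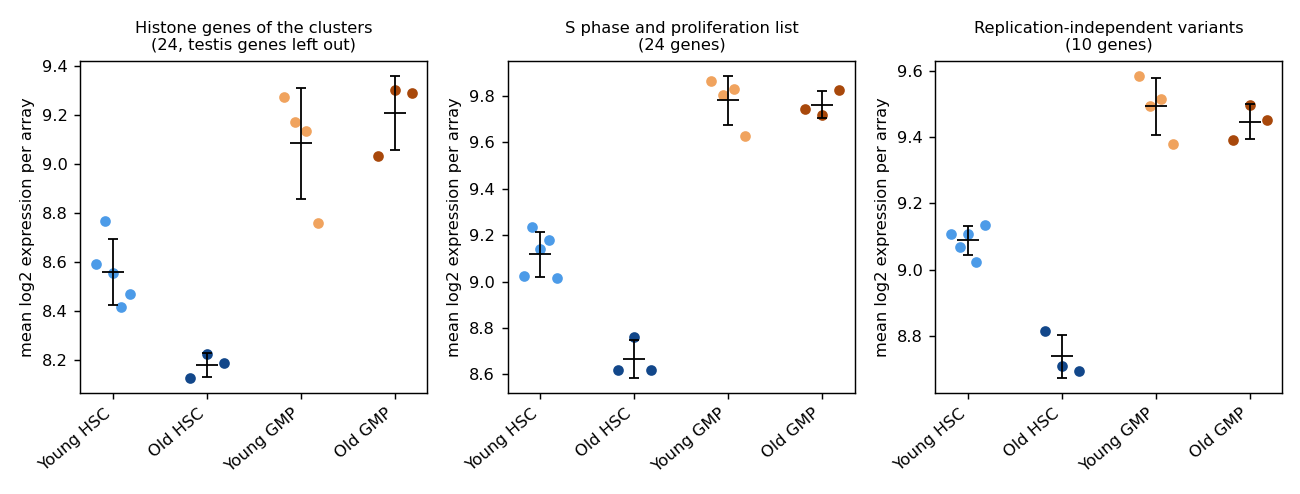
Each point is the mean log2 expression on 1 array over the 24 cluster histone genes outside the testis group (left), 24 genes of S phase and proliferation (middle) and 10 replication-independent histone variants (right), with the group mean and SD in black. In each panel old HSC lie lowest and young HSC next, below all or nearly all GMP arrays.

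Genes of S phase were also lower in HSC. Of 24 measured, 20 were lower in young HSC than in young GMP and 22 in old, with medians of -0.57 and -1.16. Examples in young mice were Rrm2, a subunit of the enzyme that makes deoxynucleotides (-1.84), Cdc6, which loads the replicative helicase (-1.24), and Ccna2, cyclin A (-1.05). With age 14 of 24 were lower in HSC and 0 in GMP, led by Ccne2, a cyclin E that acts with CDK2 on NPAT (-0.98, adjusted p = 0.00944), and Mcm7, a subunit of the helicase (-0.90, adjusted p = 4.96e-04, both by limma). In the interaction 2 of 24 passed, Mcm6 (-0.85) and Rrm1 (-0.81). The shares of all genes lower were 10.9% and 13% for the 2 comparisons of cell types, 9.22% with age in HSC and 0.0674% in the interaction. The part that S phase takes in the histone differences was not tested.

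Of 21 factors that make and trim histone mRNA, 2 were lower (10.9% of all genes) and 1 higher (13.6%) in young HSC than in young GMP, and 7 lower (13%) and 1 higher (9.25%) in old mice. Slbp, which encodes the stem-loop binding protein, read 9.23, 9.59, 9.53, 9.44 and 9.62 in young HSC, 8.96, 8.92 and 9.27 in old HSC, 9.89, 9.86, 9.73 and 9.61 in young GMP and 9.66, 9.91 and 9.86 in old GMP. It was lower in HSC than in GMP in old mice (-0.76, adjusted p = 3.34e-04) and lower in old than in young HSC (-0.43, adjusted p = 0.0311), whereas in young mice the difference of -0.29 did not pass (adjusted p = 0.0667, all by limma).

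Npat, the cluster coactivator, passed in none of the comparisons (0.05 between young cells, -0.15 between old cells, -0.23 with age in HSC). Casp8ap2, a partner of NPAT, was lower in young HSC (-0.82, limma adjusted p = 6.08e-04), and Tut7, an enzyme that adds uridines to histone mRNA before its decay, was higher in HSC at both ages (0.85 and 0.92). With age 8 of 21 were lower in HSC (9.22% of all genes), led by Lsm1 (-0.70), which binds the tails that TUT7 adds, and Cpsf3 (-0.60), the endonuclease that cleaves histone pre-mRNA.

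Histone chaperones escort newly made histones to DNA. Of 21 measured, 10 were lower (10.9% of all genes) and 1 higher (13.6%) in young HSC than in young GMP, 11 were lower in old mice (13%), and 7 were lower with age in HSC (9.22%). Nasp, a chaperone for H3 and H4 and for linker histones, read 9.86, 10.41, 10.14, 10.28 and 10.26 in young HSC, 9.26, 9.11 and 9.62 in old HSC, 11.30, 11.23, 11.13 and 10.95 in young GMP and 10.77, 11.01 and 11.21 in old GMP. Old HSC lay below young HSC and both below all GMP arrays (-0.86 with age in HSC, limma adjusted p = 0.00291). Chaf1a, a subunit of the factor that deposits histones behind the replication fork, was lower in HSC at both ages (-0.68 and -1.07) and lower with age in HSC (-0.48).

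Replication-independent variants were also lower in HSC, 4 of 10 in young (10.9% of all genes) and 6 of 10 in old mice (13%). Macroh2a1, an H2A variant with a macrodomain, differed by -1.10 and -1.70, and H2ax, the variant phosphorylated at DNA breaks, by -0.72 and -1.27. With age in HSC 6 of 10 were lower (9.22% of all genes), among them Macroh2a2 (-0.93), H2az2 (-0.72) and H2ax (-0.40, limma adjusted p = 0.0419), and 1 was higher, H2al2a, which is known from testis (0.46). H2az1 did not pass with age in HSC (-0.17). None of the genes of these 4 lists passed for age in GMP (0% of all genes did).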

How the data were processed

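RNA from sorted HSC and GMP of young and old mice was measured on 15 arrays. The authors deposited log2 expression values for 23309 probe sets, and per the submitters' processing notes the tools were RMA, affy and limma, with versions not given in the sources used here. Probe sets with 1 gene symbol (20728) were reduced to the brightest per gene, leaving 19296 genes. Probe sets with several symbols (1174, of which 22 were histone probe sets) or with none (1407) were not fitted as genes.

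All 15 arrays were fitted with limma 3.58.1 in R 4.3.3, with 1 mean per group, default moderation and Benjamini-Hochberg adjustment over all genes at a threshold of 0.05. The procedure was tested on simulated data with independent noise for each gene. These data held no array-wide differences and no pairing, so the test says nothing on either. Genes with full statistics were the up to 6 largest called changes per direction among members, or the 3 smallest adjusted p-values where fewer than 3 were called, and up to 4 per list, plus Slbp, Npat, Casp8ap2 and the variants H2ax and H2az1. Other members are named with their values. The members and lists were chosen with earlier results of these data known.

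Deviations from the group means of same-numbered young HSC and GMP arrays correlated by 0.29, 0.23, 0.16 and 0.52, so these numbers were taken as pairing young arrays. Those of old HSC and GMP (0.05, 0.23 and 0.42) and of the age comparisons (-0.24 to 0.15) were not. The young and old values overlap, and no label states what the numbers mean, so the pairing of young arrays is uncertain. The main fit used no pairing, and its p-values for HSC against GMP take the arrays as unpaired. Alternatives covered scaling, array spread, array weights, moderation, dim genes, probe set choice, the replicate block, Xist and leaving out arrays. The number of arrays limits the precision. Gene positions and promoters are those of RefSeq (GRCm38.p6).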

Additional observations from a re-analysis of the deposited data

Results flagged for a closer look

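Of 64 sets of 4 or 5 arrays (each histone gene in young HSC and young GMP, and means over members) tested for a single outlying array, 7 had one whose gap to its nearest neighbour was too large a share of the range by Dixon's criterion. Chance alone gives about 1 in 20 per set. The sets share the same arrays, so 1 deviating array can give several at once, and the count cannot be judged against that rate. The share of all genes with such an array was not counted. All 7 were the arrays numbered 4. In young HSC replicate 4, H2bc4 stood at 8.21 where the other 4 arrays ran from 9.40 to 9.72, and H4c3 at 9.53 where the others ran from 8.58 to 8.71. In young GMP replicate 4, H2ac15 stood at 11.0 against 11.38 to 11.45, H2ac4 at 8.99 against 9.76 to 9.81, H2bc22 at 6.41 against 6.71 to 6.74, H2bc8 at 10.65 against 11.30 to 11.39 and H4c6 at 8.94 against 9.996 to 10.10. Both arrays also had the lowest interquartile range of their group, 2.21 and 2.13. The cause was not tested.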

How the results depend on the processing

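The counts of members lower in HSC than in GMP stayed within 1.5 times of 15 (young) and 19 (old) under every alternative run, and their medians kept their sign. Leaving out 1 array at a time moved the median from -0.65 to -0.39 in young and from -0.98 to -0.75 in old mice, and it was -1.11 in old mice over genes above the median level. Members higher in old HSC than in old GMP numbered 2 after quantile normalization (11.5% of all genes) and 1 with the interquartile range as a covariate (11.1%). They numbered 1 with array weights (18%), 1 without both young arrays numbered 4 (11.1%), and 0 to 1 when 1 array was left out (7.2% to 10.4%).

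The count lower with age in HSC was the least stable. Against 3 (9.22% of all genes lower) it was 0 with the interquartile range as a covariate (0.264%), 7 with Xist as a covariate (10.5%), 8 over genes above the median level (21.5%), 13 without both young arrays numbered 4 (19.6%) and 15 with array weights (25.2%), so that in most of these settings the share of all genes rose too. Both of the last settings gave 2 higher (12.4% and 21.3% of all genes). Leaving out 1 array gave 0 to 13 lower (1.44% to 17.9% of all genes) and 0 to 2 higher (0.295% to 9.62%). In GMP 2 members were higher without both young arrays numbered 4 (0.0985% of all genes). With array weights 4 were higher (0.886% of all genes) and 1 lower (3.43%). In the interaction 2 were lower without both young arrays numbered 4 (0.632% of all genes) and 11 with array weights (8.76%, against 0.0674%). When 1 array was left out 0 to 2 were lower (0.00518% to 0.876% of all genes). The cause of these shifts was not tested. Xist was above every old array on 7 of 9 young arrays.

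With the replicate number as a block, 14 members were lower with age in HSC (19.2% of all genes). In GMP 1 was higher (H1f5, 0.15% of all genes), and in the interaction 1 was lower (H4c4, 0.176%). The counts between HSC and GMP stayed at 15 and 19 lower. This block also joins old with young arrays of the same number, which were not taken as paired. A block for pairs within an age, chosen after seeing the data, gave 17 lower (15.8% of all genes) and 2 higher (16%) in young mice.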
